A study of Homo sapiens with 66 samples.

Results

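The genes described here are KMT2A, MEN1, PSIP1, DOT1L, MLLT1, MLLT3, AFF1 and AFF4, the histone methyltransferase broken in KMT2A-rearranged leukaemia, the chromatin adaptors it needs and the elongation factors it is fused to or works with. They are 8 of 57992 gene identifiers analysed. They were chosen by symbol for their known roles, with earlier results of these data known. Their RNA was read in 66 libraries of 11 acute myeloid leukaemia (AML) cell lines, 3 untreated and 3 treated for 24 h with etoposide in each line. Etoposide is a topoisomerase II poison, and each line received its own IC50, the concentration that lowers the viability measure by 50%, so dose and line cannot be told apart. The KMT2A-rearranged class holds 5 lines, MV-4-11, MOLM-13, THP-1, NOMO-1 and MONO-MAC-6. The class called other here holds 6, F-36P, HL-60, KASUMI-1, NB-4, OCI-AML2 and OCI-AML3. From general knowledge of these lines and not from the labels, MV-4-11 carries a KMT2A-AFF1 fusion and the other 4 rearranged lines a KMT2A-MLLT3 fusion. Each line is 1 culture model from 1 patient, and counts per gene cannot separate reads of a fusion transcript from those of the intact genes. The etoposide libraries of OCI-AML2 were set aside by the study for their quality, so results after etoposide are given for 10 lines.

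KMT2A writes methyl marks on lysine 4 of histone H3 at active promoters and keeps HOX genes on in blood progenitors. In leukaemia its amino-terminal part, which binds menin (the product of MEN1) and LEDGF (the product of PSIP1) and has a CXXC domain that reads unmethylated CpG, is joined to a partner protein. The common partners AF9 (MLLT3), ENL (MLLT1) and AF4 (AFF1) belong to assemblies that release paused RNA polymerase II, with AFF4 as the scaffold of the super elongation complex, or that bring in DOT1L, which methylates lysine 79 of histone H3. Exposure to topoisomerase II poisons is known for later leukaemias in which KMT2A itself is broken.

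On GRCh38, in gencode release 44, KMT2A spans chr11:118436456-118526832 on the plus strand and MEN1 chr11:64803510-64811294 on the minus strand. DOT1L spans chr19:2163933-2232578 (plus) and MLLT1 chr19:6210381-6279975 (minus). MLLT3 spans chr9:20341669-20622499 (minus), PSIP1 chr9:15464066-15510995 (minus), AFF1 chr4:86935002-87141039 (plus) and AFF4 chr5:132875395-132963634 (minus). The canonical transcripts range from 2.71 kb for MEN1 to 16.6 kb for KMT2A. Parts of KMT2A, DOT1L and PSIP1 lie opposite genes of the other strand, and the counts appear to have been made by strand.

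Because KMT2A binds DNA through CpG, the 250 bases before the RefSeq start are shown for KMT2A itself, for MLLT1 and AFF1, which were lower after etoposide on average over the lines, and for AFF4, which was higher. The sequences are from RefSeq on GRCh38.p14, 5′ to 3′ on the strand of the gene, with each CG in capitals. They lie at chr11:118436242-118436491 (plus), chr19:6279976-6280225 (minus), chr4:86934761-86935010 (plus, the upstream of the 2 AFF1 starts) and chr5:132963635-132963884 (minus).
KMT2A: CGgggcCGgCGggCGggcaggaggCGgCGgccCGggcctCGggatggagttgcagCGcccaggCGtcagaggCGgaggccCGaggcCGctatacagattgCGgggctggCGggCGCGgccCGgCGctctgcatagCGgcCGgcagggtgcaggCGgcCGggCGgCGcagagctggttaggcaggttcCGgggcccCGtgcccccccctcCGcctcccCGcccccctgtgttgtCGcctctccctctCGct
MLLT1: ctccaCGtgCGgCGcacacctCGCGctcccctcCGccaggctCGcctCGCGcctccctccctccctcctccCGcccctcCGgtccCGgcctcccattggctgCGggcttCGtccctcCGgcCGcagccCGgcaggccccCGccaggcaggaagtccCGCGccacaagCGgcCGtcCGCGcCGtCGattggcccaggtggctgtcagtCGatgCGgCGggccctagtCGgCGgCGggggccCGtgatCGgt
AFF1: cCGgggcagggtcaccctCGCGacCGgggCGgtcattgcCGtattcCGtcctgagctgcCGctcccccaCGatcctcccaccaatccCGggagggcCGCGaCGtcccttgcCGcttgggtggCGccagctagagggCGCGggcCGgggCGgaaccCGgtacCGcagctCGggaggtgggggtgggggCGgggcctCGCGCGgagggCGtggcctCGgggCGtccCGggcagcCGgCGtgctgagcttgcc
AFF4: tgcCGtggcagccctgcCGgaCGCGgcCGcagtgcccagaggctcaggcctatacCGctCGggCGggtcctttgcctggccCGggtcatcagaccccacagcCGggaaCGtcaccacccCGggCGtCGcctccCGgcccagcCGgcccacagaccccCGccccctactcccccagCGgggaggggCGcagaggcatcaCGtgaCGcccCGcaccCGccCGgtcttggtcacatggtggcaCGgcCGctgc

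These windows held 31 CG for KMT2A, 34 for MLLT1, 32 for AFF1 and 26 for AFF4, against a median of 11 over 35116 RefSeq promoter windows of the same length. As many CG as in the MLLT1 window were found in 6.84% of all windows, and as many as in the AFF4 window in 19.6%. RefSeq windows were matched for 7 of the 8 genes, 10 windows in all, and DOT1L had no entry in the table. The fewest CG, 15, were in the upstream of the 2 MEN1 windows. The letters TATAAA, searched on both strands, were in none of the 10 windows and in 10.7% of all windows. The letters CACGTG were in the AFF4 and MLLT1 windows and in 6.34% of all. GGGCGG, also on both strands, was in 7 of the 10 windows and in 42.6% of all, among them each of the 4 windows shown. CCAAT, also on both strands, was in 6 of the 10 windows and in 32.0% of all. Of the windows shown, those of MLLT1 (as ATTGG, the other strand) and AFF1 had matches and those of AFF4 and KMT2A none. Each of the 4 windows shown was thus rich in CG, whichever way its gene moved.

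Reads on genes numbered 17997404 to 24101670 per library (median 20241014), and no library had fewer than 31 reads on any of the 8 genes. The lowest count was MLLT3 in MV-4-11, and the 7 other genes had at least 513 reads in every library. Levels are in CPM, counts per 1000000 reads after TMM scaling (a factor per library that evens out differences in composition), as the mean ± SD of 3 libraries. All 11 lines expressed at least 4 of 6 myeloid markers at 1 CPM or more, and F-36P alone expressed all 5 erythroid markers. Monocytic markers summed to 396 to 4130 CPM in the rearranged lines and 7.25 to 5150 in the others. Lymphoid markers summed to at most 10.2 CPM in any line. Markers of non-haematopoietic cells summed to at most 10.1 CPM except in KASUMI-1, where EPCAM brought the sum to 81.9. HOXA9 and MEIS1, the homeobox genes that KMT2A fusions keep on, were measured as a check of the classes. HOXA9 was at 56.2 CPM or more in the 5 rearranged lines, but also at 67.4 in OCI-AML2 and 59.1 in OCI-AML3. It was at 2.01 CPM or less in the remaining 4 lines, with 0 reads in HL-60, which allows up to 0.0515 CPM. MEIS1 was at 56.4 to 82.9 CPM in 4 rearranged lines, 65.7 in OCI-AML2 and 37.1 in OCI-AML3, yet at 0.185 in THP-1. The class labels and the level of these target genes therefore coincide in part only. Untreated levels are compared between classes with and without OCI-AML2, while OCI-AML3 was kept in both. OCI-AML2 had the lowest KMT2A and MEN1 of the other class, so leaving it out widens the class difference in both genes. As in any bulk sample, fewer cells expressing a gene and less RNA per cell cannot be told apart.

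KMT2A RNA, counted over the whole gene, was low in most lines that carry a rearranged KMT2A. A fusion transcript holds only part of KMT2A, so fewer transcripts and shorter ones cannot be told apart in these counts. Untreated levels were 303 ± 10.6 CPM in HL-60, 295 ± 31.8 in KASUMI-1, 287 ± 16.5 in NB-4, 259 ± 31.3 in F-36P and 210.0 ± 7.21 in OCI-AML3. OCI-AML2 had 158 ± 10.7. Among rearranged lines, MV-4-11 had 217 ± 15.7, MONO-MAC-6 173 ± 3.28, NOMO-1 89.8 ± 9.75, THP-1 88.4 ± 8.66 and MOLM-13 74.9 ± 1.8. The 3 lowest lines, all with a KMT2A-MLLT3 fusion, did not overlap with any of the other 8 in their single libraries, and the highest line stood 4.05 times above the lowest. NOMO-1 and THP-1 overlapped each other, as did the 4 highest lines with their neighbours.

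The mean over lines was 129 ± 62.8 CPM (SD, n = 5) in the rearranged class and 252 ± 57.1 (n = 6) in the other class, a log2 difference of -0.98 (SE 0.306). The exact two-sided permutation test over the 462 splits of the lines gave p = 0.0216 for this 1 gene, and p = 0.0159 without OCI-AML2. In the edgeR quasi-likelihood test over all genes the unadjusted p was 0.00812 and the FDR 0.759, so the difference was not called. All 5 rearranged lines lay below the median of the others, yet MV-4-11 lay above OCI-AML2 and OCI-AML3. A split of the 4 KMT2A-MLLT3 lines against the other 7 was planned for the level of MLLT3, not of KMT2A. It puts MV-4-11 in the comparison group. In this split the 4 lines averaged 107 ± 44.8 CPM and the 7 others 247 ± 53.8, a log2 difference of -1.22 (SE 0.267). The exact permutation p over 330 splits was 0.0121 for n = 4 against 7, and 0.00952 without OCI-AML2. The edgeR FDR was 0.667, while DESeq2 gave an FDR of 0.0171, in a test that called 59 of 17052 genes.

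MEN1, whose product menin tethers KMT2A and its fusions to chromatin, separated the classes without overlap of the line means. The 5 rearranged lines ranged from 52.1 CPM in THP-1 to 79.0 in MOLM-13, and the 6 others from 81.0 in OCI-AML2 to 114 in F-36P. Their means were 67.6 ± 12.1 and 94.8 ± 12.8 CPM, a log2 difference of -0.49 (SE 0.16). The exact permutation p was 0.00433 (n = 5 and 6), or 0.00794 without OCI-AML2, in both cases the smallest that a two-sided test of this size allows. The single libraries of OCI-AML2 and MOLM-13, the 2 lines at the border, overlapped. The edgeR FDR was 0.759, with an unadjusted p of 0.00999. Across the 11 lines MEN1 and KMT2A had a Pearson r of 0.712, given as a description over lines that also share the class split.

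For the other 6 genes the classes overlapped, and exact permutation p-values, with n = 5 and 6, ranged from 0.238 for AFF4 to 0.874 for PSIP1, or from 0.143 for AFF4 to 1.0 for PSIP1 without OCI-AML2. No gene was called between classes in the edgeR test of untreated levels, which is 0.0% of 16215 genes, so the absence of calls among the 8 is not particular to them. At an unadjusted p under 0.05 the same test had 1050 genes, and DESeq2 called 93, with none of the 8 among them. None of 5 monocytic markers was called between the classes. Their median log2 difference was 1.4, rearranged over other, with 1 of them, ITGAM (2.75), at an unadjusted p under 0.05, and their part in the KMT2A and MEN1 values was not tested.

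**Figure D1:**
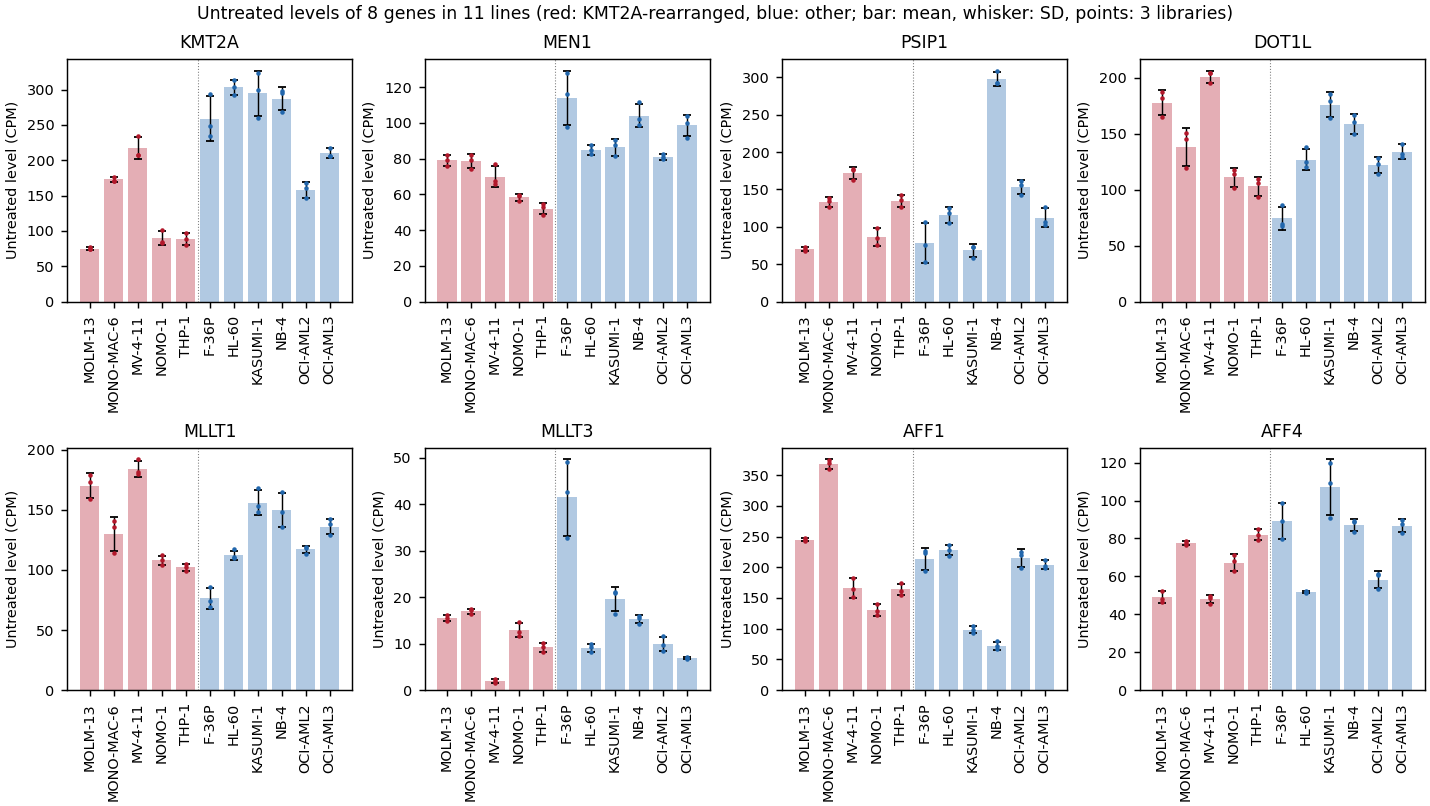
Untreated level in CPM (y axis, from 0) of each gene in 11 cell lines (x axis), with bars for the mean of 3 libraries, whiskers for the SD and points for single libraries. KMT2A-rearranged lines are red and left of the dotted line, others blue; MEN1 is the gene whose class means do not overlap, at 52.1 to 79.0 against 81.0 to 114 CPM.

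MLLT3 had the widest range, from 1.94 ± 0.429 CPM in MV-4-11 to 41.5 ± 8.23 in F-36P, 21.4 times apart. The next line below F-36P was KASUMI-1 at 19.6 ± 2.61. MONO-MAC-6 had 17.0 ± 0.535, MOLM-13 15.5 ± 0.688, NOMO-1 12.9 ± 1.51 and THP-1 9.26 ± 0.946, so the 4 lines with an MLLT3 fusion held middle places and none of them was first. The libraries of NB-4, at 15.3 ± 0.871, overlapped those of MOLM-13, and those of HL-60, at 9.17 ± 0.851, overlapped those of THP-1. OCI-AML2 had 9.94 ± 1.52 and OCI-AML3 6.89 ± 0.239. In MV-4-11, whose fusion partner is AFF1, MLLT3 RNA was the lowest of the 11 lines, with 116 reads summed over its 3 untreated libraries. The 4 fusion lines averaged 13.7 ± 3.39 CPM and the 7 others 14.9 ± 13.0, and the exact permutation p was 0.691 (n = 4 and 7). The log2 difference of -0.14 (SE 0.643) was not called by edgeR (FDR 0.992), in a test that called 0.00586% of 17052 genes, which is 1 gene, and had 916 at an unadjusted p under 0.05. The sign of this difference was not stable, since it was 0.38 without F-36P and 0.26 by limma on line means with F-36P kept. Without OCI-AML2 the exact permutation p was 0.752 (n = 4 and 6).

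AFF1 was also not highest in the line where it is the fusion partner. MV-4-11 had 166 ± 16.1 CPM, the seventh of 11 levels, overlapping THP-1 at 164 ± 9.25. MONO-MAC-6 stood above all lines at 368 ± 7.72, with MOLM-13 next at 245 ± 2.53. The lowest levels were 98.7 ± 6.42 in KASUMI-1 and 72.3 ± 6.85 in NB-4. AFF4, its paralog and the super elongation complex scaffold, varied only 2.22 times, from 48.1 ± 2.23 CPM in MV-4-11 to 107 ± 14.8 in KASUMI-1. PSIP1, which encodes the chromatin tether LEDGF, was highest in NB-4 at 298 ± 9.29, followed by MV-4-11 at 172 ± 7.81, and lowest in KASUMI-1 at 68.7 ± 8.39 and MOLM-13 at 70.4 ± 2.66, which overlapped.

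DOT1L and MLLT1 followed each other from line to line. Both were highest in MV-4-11 (201 ± 5.49 and 184 ± 6.6 CPM) and lowest in F-36P (74.3 ± 10.6 and 76.3 ± 8.59), and their ratio stayed between 0.974 and 1.13 in all 11 lines. Their Pearson r over the 11 line means of log2(CPM + 1) was 0.989, and of 13662 genes at a mean of 1 CPM or more, MLLT1 was the most alike to DOT1L and DOT1L the most alike to MLLT1. Second for both was EPS15L1, with r of 0.953 to DOT1L and 0.958 to MLLT1. All 3 genes lie on chromosome 19, DOT1L and MLLT1 3.98 Mb apart. By the same measure the closest genes to KMT2A were ASXL1 (0.943) and SRRM1 (0.878), to MEN1 KPNB1 (0.931) and TULP3 (0.928), and to PSIP1 INSIG1-DT (0.933) and YWHAB (0.914). Closest to MLLT3 were PSAP (0.924) and PARP12 (0.916), to AFF1 FAM114A2 (0.922) and PPP4R3B (0.904), and to AFF4 RTKN2 (0.909) and GYPC (0.897). These values describe 11 points that share libraries, depth and class, and carry no test.

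**Figure D2:**
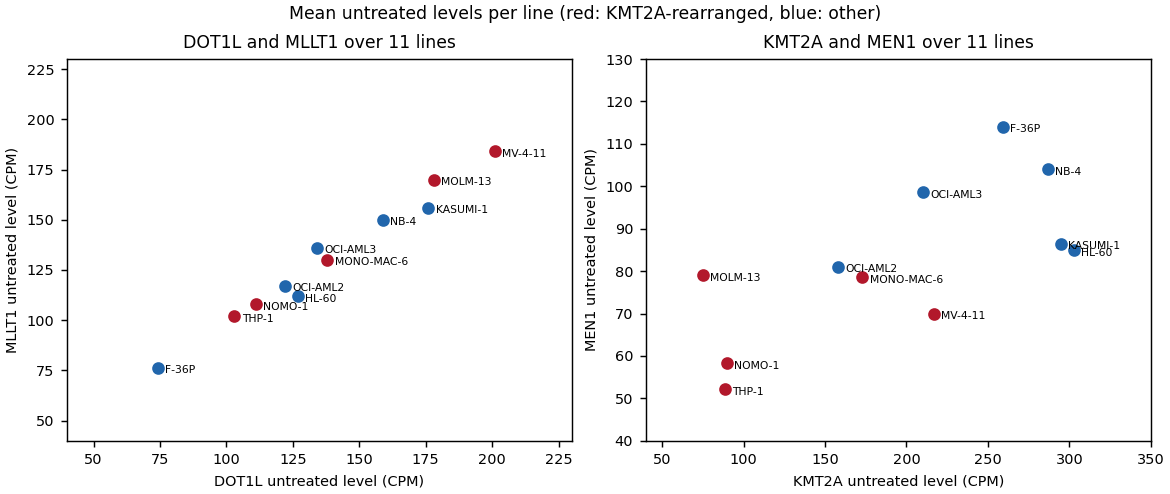
Mean untreated level per line of MLLT1 against DOT1L (left) and of MEN1 against KMT2A (right), both axes in CPM, 1 point for each of 11 lines, red for KMT2A-rearranged and blue for other. DOT1L and MLLT1 lie along 1 line from F-36P (74.3 and 76.3) to MV-4-11 (201 and 184), while all red points in the right panel lie at or below 79.0 CPM of MEN1.

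Per kb of the canonical transcript, which allows levels of different genes to be compared, PSIP1 was the most abundant, with a median of 34.7 CPM per kb over the lines, followed by MEN1 (29.9), MLLT1 (28.8), AFF1 (22.0) and DOT1L (17.5). KMT2A (12.7) and AFF4 (8.14) were lower, and MLLT3 was the least abundant at 1.92. This scale takes no account of fusion transcripts, which hold only part of a gene. The range for MLLT3, 0.289 to 6.17 CPM per kb, lay below the lowest line of MEN1, 19.2. MLLT1 thus exceeded its paralog MLLT3 in each line, since its lowest level was 16.8 CPM per kb.

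Etoposide lowered more of these genes than it raised. Of 80 tests, 8 genes in 10 lines, 15 were called higher and 40 lower at an FDR below 0.05, which is 18.8% and 50%. Over all genes tested in the same lines, 27.7% of tests were called higher and 24.4% lower. The share of all genes called in as many lines is given below for AFF4, DOT1L and PSIP1. For the other genes it was not counted, so whether their numbers of lines are unusual is not shown. With library size alone for scaling, 19 were called higher and 30 lower, which takes the share of higher calls among all calls from 27.3% to 38.8%. Over all genes this share went from 53.1% to 64.7%. That scaling moved the median of all genes by -0.01 to 0.25 on the log2 scale, and it turned the sign of 4 uncalled values and of no called one. Most changes were small. With a fold change above 2 added to the rule, 3 of the 80 were called, AFF1 in F-36P, DOT1L in NB-4 and PSIP1 in MOLM-13, all lower, against 15% of tests over all genes.

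The number of the 8 called in either direction was 7 in NB-4, 6 in F-36P, MOLM-13, MONO-MAC-6, NOMO-1 and OCI-AML3, 5 in KASUMI-1, MV-4-11 and THP-1, and 3 in HL-60. The share of all genes called was 59.8% in NB-4, 59.9% in F-36P, 56.2% in MOLM-13, 62.3% in MONO-MAC-6 and 52.7% in NOMO-1. It was 40.1% in OCI-AML3, 60.1% in KASUMI-1, 63.9% in MV-4-11, 32.1% in THP-1 and 32.5% in HL-60. Over the 10 lines 55 of the 80 tests were called, where 27.7% of tests over all genes were called higher and 24.4% lower. In OCI-AML2 none of the 8 was called, with 3 of 13604 genes (0.0221%) called by edgeR and 16 by DESeq2. At an unadjusted p under 0.05 edgeR had 456 genes there and none of the 8.

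**Figure D3:**
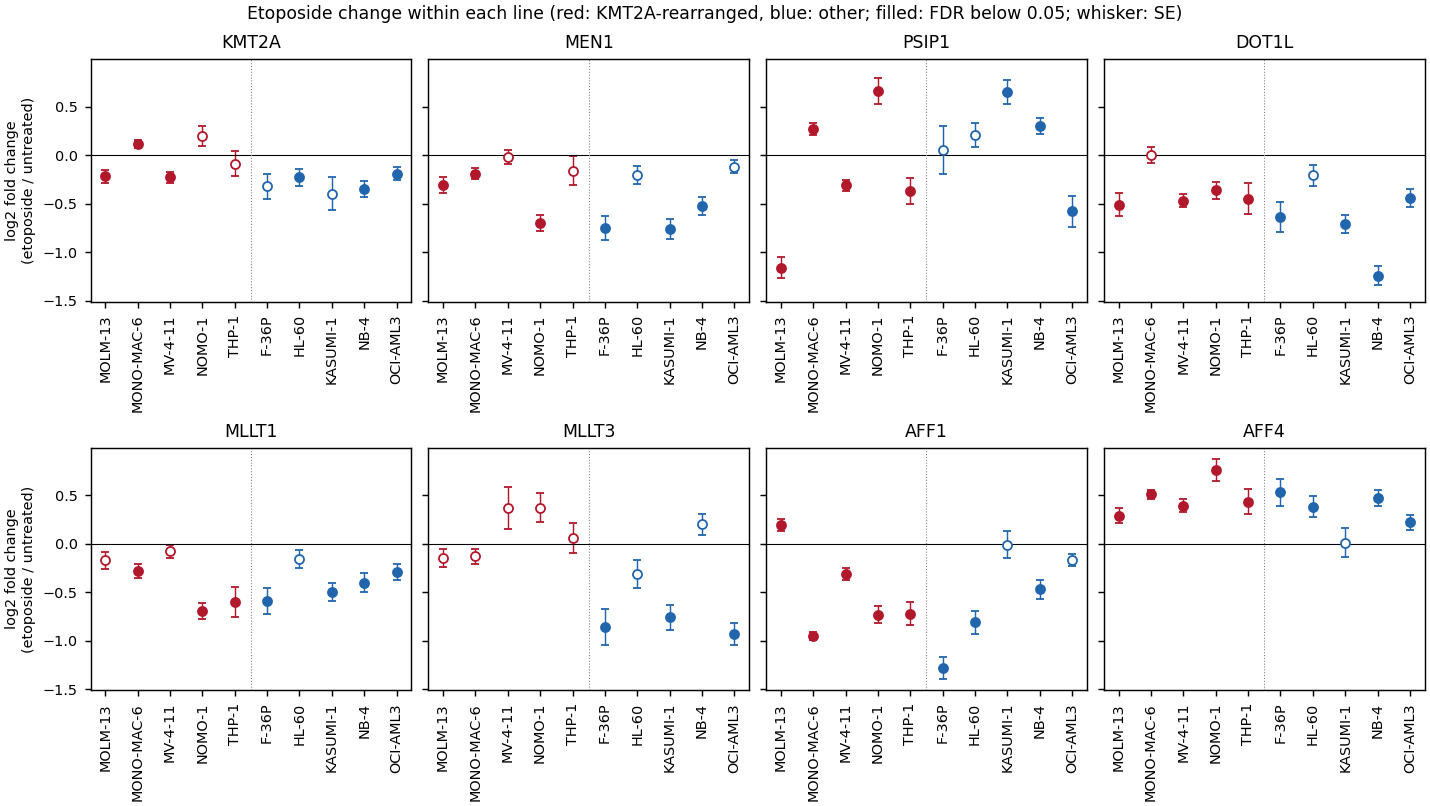
Log2 fold change, etoposide over untreated (y axis), of each gene in 10 lines (x axis), with whiskers for the SE and filled points for an FDR below 0.05. Red points left of the dotted line are KMT2A-rearranged lines, blue points other lines; all 10 AFF4 points are above 0, while PSIP1 ranges from -1.16 to 0.66.

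AFF4, the scaffold of the super elongation complex, was called higher after etoposide in 9 of 10 lines. In MONO-MAC-6 it stood at 81.6, 79.6 and 80.9 CPM untreated and at 115, 116 and 115 after etoposide. In NB-4 it went from 92.7, 87.4 and 94.3 to 133, 121 and 126 CPM, and in NOMO-1 from 79.7, 75.7 and 70.3 to 106, 148 and 129. The libraries of the 2 conditions did not overlap in any of these lines. The log2 fold changes were 0.51 (SE 0.0455, edgeR FDR 1.52e-06) in MONO-MAC-6, 0.47 (SE 0.0832) in NB-4 and 0.76 (SE 0.115) in NOMO-1, the largest of the 10. In KASUMI-1 the value was 0.01 (SE 0.148), with overlapping libraries, and it was not called (FDR 0.954). It turned negative under RLE scaling. The weakest call was OCI-AML3 (0.22, FDR 0.046), which was lost in 4 of 6 fits that leave out 1 library and under RLE scaling, no filter on low counts, a replicate block and DESeq2. The call in THP-1 was lost without untreated replicate 3 and without etoposide replicate 3 (FDR 0.0648 and 0.0639). That in HL-60 was lost without untreated replicate 2 (FDR 0.0546). Of 10588 genes tested in all 10 lines, 3.74% were called higher in 9 or more of them. The mean change was 0.40 (SE 0.0694, limma FDR 0.000734, n = 10 lines), and the exact sign-flip permutation gave p = 0.00195, the smallest that 10 lines allow.

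AFF1, the paralog of AFF4 and a fusion partner of KMT2A, moved the other way in most lines. In F-36P it fell from 228, 207 and 244 CPM to 91.5, 87.2 and 101, in MONO-MAC-6 from 374, 390 and 384 to 201, 195 and 197, and in HL-60 from 253, 234 and 245 to 154, 151 and 111. No etoposide library reached the lowest untreated one in these 3 lines. The log2 fold changes were -1.28 (SE 0.115), -0.95 (SE 0.0404) and -0.81 (SE 0.115). MOLM-13 was the exception, with 234, 234 and 238 CPM untreated and 264, 277 and 261 after etoposide, a log2 change of 0.19 (edgeR FDR 0.0228). That call was lost in 3 of 6 fits that leave out 1 library and without a filter on low counts (FDR 0.119). AFF1 was called lower in 7 lines and higher in 1, and in KASUMI-1 it was at -0.01 (SE 0.136). In MV-4-11, where reads of the KMT2A-AFF1 fusion count towards it, the change was -0.31 (SE 0.0644, FDR 0.000217). The mean over lines was -0.53 (SE 0.127, limma FDR 0.00523, n = 10). The AFF4 value exceeded the AFF1 value within every one of the 10 lines, by 0.02 in KASUMI-1 to 1.81 in F-36P on the log2 scale, a comparison chosen after the values were seen and not tested.

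DOT1L, the lysine 79 methyltransferase, was called lower in 8 lines and higher in none. In NB-4 it went from 157, 175 and 170 CPM to 60.5, 77.1 and 74.5, a log2 change of -1.24 (SE 0.1, edgeR FDR 7.95e-08). In KASUMI-1 it went from 164, 186 and 178 to 101, 104 and 118 CPM, and in MV-4-11 from 216, 209 and 219 to 136, 161 and 168. The conditions did not overlap in any of these 3 lines. In MONO-MAC-6 the means were 144 and 144 CPM, with no call. The call in THP-1 (-0.45, FDR 0.0372) was lost in 5 of 6 fits that leave out 1 library, and its libraries overlapped. That in F-36P was lost with library size alone for scaling (-0.39, FDR 0.0569). Of all genes, 8.56% were called lower in 8 or more lines. The mean was -0.50 (SE 0.0973, limma FDR 0.00141), negative in 10 of 10 lines. With library size alone for scaling, the value in MONO-MAC-6 turned positive.

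MLLT1, which encodes ENL, was called lower in 7 lines and higher in none. Its change was largest in NOMO-1, from 117, 120 and 125 CPM to 79.0, 71.9 and 73.8, with no overlap (log2 -0.69, SE 0.0807, edgeR FDR 2.52e-05). It was -0.60 in THP-1 and -0.59 in F-36P, the latter not called with library size alone for scaling (-0.35, edgeR FDR 0.0593). The calls in MONO-MAC-6 (-0.17, FDR 0.0769) and NB-4 (-0.19, FDR 0.114) were also lost with that scaling. The call in OCI-AML3 was lost in most fits that leave out 1 library, with FDRs of 0.0645 to 0.0727. In MV-4-11 (-0.08), MOLM-13 (-0.17) and HL-60 (-0.16) MLLT1 was not called. The mean was -0.38 (SE 0.0709, limma FDR 0.00121), negative in 10 of 10 lines, with an exact sign-flip permutation p of 0.00195 for DOT1L and for MLLT1. With library size alone, the MLLT1 value in MV-4-11 turned positive. The changes of DOT1L and MLLT1, so alike in untreated lines, were -1.24 and -0.40 in NB-4 and -0.47 and -0.08 in MV-4-11, a difference that was not tested.

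**Figure D4:**
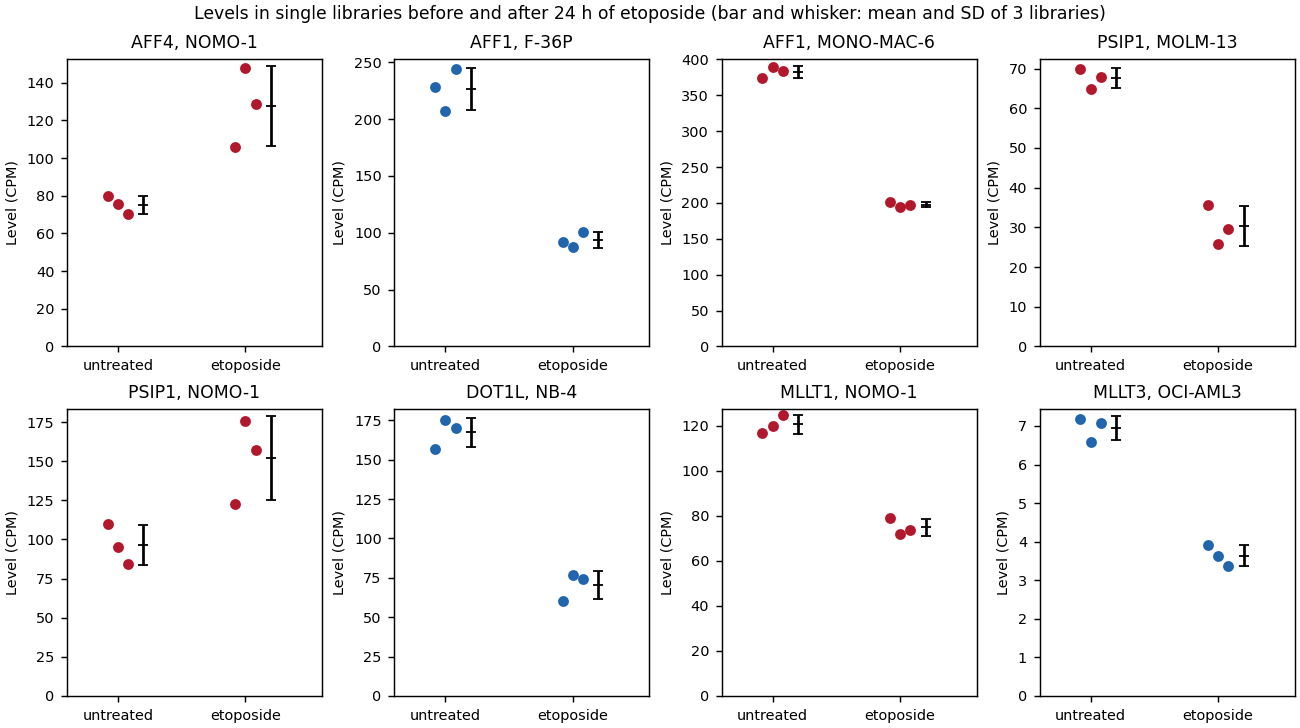
Level in CPM (y axis, from 0) in single libraries, 3 untreated and 3 after 24 h of etoposide (x axis), for 8 pairs of gene and line chosen after the values were seen, red for KMT2A-rearranged and blue for other lines, with the mean and SD beside the points. The conditions do not overlap in any of the 8 panels, and they come closest for PSIP1 in NOMO-1, where the highest untreated library (110) lies below the lowest etoposide one (123).

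MEN1 was called lower in 6 lines and higher in none. Of single tests over all genes 24.4% were called lower, and the share of genes called lower in as many lines was not counted. In NOMO-1 it went from 62.7, 65.9 and 66.6 CPM to 41.0, 38.6 and 40.4, and in KASUMI-1 from 81.4, 87.9 and 89.6 to 44.6, 55.9 and 52.7, with no overlap in either line. The log2 changes were -0.70 (SE 0.0835) and -0.76 (SE 0.1), close to that in F-36P (-0.75). MV-4-11 showed 74.8 ± 6.63 and 73.8 ± 5.9 CPM, with no call. The call in MONO-MAC-6 was lost with library size alone for scaling (-0.07, edgeR FDR 0.298). The mean was -0.37 (SE 0.0879, limma FDR 0.00452), negative in 10 of 10 lines. With library size alone, the MEN1 value in MV-4-11 turned positive.

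KMT2A itself changed little. It was called lower in 5 lines and higher in 1, with log2 values from -0.40 in KASUMI-1, where the libraries overlapped and it was not called, to 0.20 in NOMO-1. In MV-4-11 it went from 249, 222 and 223 to 205, 194 and 191 CPM (-0.23, edgeR FDR 0.00124), and in NB-4 from 312, 280 and 312 to 245, 230 and 235 (-0.35, FDR 0.00178). In MONO-MAC-6 it went from 184, 177 and 178 to 191, 197 and 195 CPM (0.11, FDR 0.0366). The conditions did not overlap in these 3 lines. The calls in HL-60, MONO-MAC-6 and OCI-AML3 were each lost in 5 of 6 fits that leave out 1 library, and that in MOLM-13 (-0.22, edgeR FDR 0.0214) in 3 of 6. The calls in MV-4-11 (-0.11, FDR 0.119) and NB-4 (-0.14, FDR 0.131) were lost with library size alone for scaling. In F-36P KMT2A was not called (-0.32, edgeR FDR 0.0589), though its libraries did not overlap. Under RLE scaling, no filter on low counts and DESeq2 it was called lower there (FDRs of 0.0282, 0.00898 and 0.0321). The same held in KASUMI-1 (FDRs of 0.0484, 9.9e-06 and 0.0305). The mean was -0.17 (SE 0.0664, n = 10) with a limma FDR of 0.0483, just under the threshold. It was above the threshold when any 1 of 8 lines was left out, all but MONO-MAC-6 and NOMO-1, with FDRs of 0.0586 to 0.104, and it was -0.06 (FDR 0.419) with library size alone for scaling.

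PSIP1 split the lines. It was called higher in KASUMI-1, MONO-MAC-6, NB-4 and NOMO-1 and lower in MOLM-13, MV-4-11, OCI-AML3 and THP-1, and 0.434% of all genes were called in at least 4 lines in each direction. In MOLM-13 it fell from 70.0, 64.9 and 67.9 CPM to 35.6, 25.7 and 29.7, a log2 change of -1.16 (SE 0.109, edgeR FDR 1.46e-05). In NOMO-1 it rose from 110, 95.0 and 84.2 to 123, 176 and 157 (0.66, SE 0.131), and in KASUMI-1 from 73.4, 73.8 and 58.4 to 106, 95.2 and 122 (0.65, SE 0.121). Both directions occurred in both classes, with 2 rises and 3 falls among rearranged lines and 2 and 1 among the others. The call in THP-1 was lost in 3 of 6 fits that leave out 1 library and with library size alone (-0.31, FDR 0.0818). In F-36P, whose untreated libraries spread from 53.0 to 116 CPM, no change could be told (0.05, SE 0.249). The mean over lines was -0.03 (SE 0.158, FDR 0.9).

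MLLT3 fell in 3 lines, all in the other class. In OCI-AML3 it went from 7.17, 6.59 and 7.07 CPM to 3.92, 3.62 and 3.38 (log2 -0.93, SE 0.116), in F-36P from 33.1, 45.5 and 53.8 to 25.6, 26.5 and 20.7 (-0.86, SE 0.185) and in KASUMI-1 from 21.1, 21.1 and 16.4 to 12.4, 10.6 and 11.6 (-0.76, SE 0.128). The conditions did not overlap in these 3 lines. None of the 5 rearranged lines had a call, their values running from -0.15 in MOLM-13 to 0.37 in MV-4-11 and NOMO-1. The lack of a call in NOMO-1 (edgeR FDR 0.0517) depended on the processing, since MLLT3 was called higher there with library size alone (0.43, FDR 0.0204), without a filter on low counts (0.37, FDR 0.0142) and in 2 of 6 fits that leave out 1 library (FDR 0.0449 and 0.00357). In MV-4-11 it was called higher with library size alone (0.50, FDR 0.0464) and without etoposide replicate 1 (0.52, FDR 0.0408). In NB-4, of the other class, it was called higher with library size alone (0.40, FDR 0.00495). The mean over lines was -0.21 (SE 0.145, limma FDR 0.246).

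The changes were then compared among lines and between classes. In 1 edgeR quasi-likelihood fit of 60 libraries, a test added after the data were seen, the change differed among the 10 lines for all 8 genes, with FDRs from 3.11e-13 for AFF1, 1.38e-09 for PSIP1 and 2.13e-09 for MLLT3 to 0.0074 for AFF4 and 0.0242 for KMT2A. This held for 74.5% of all genes. Between classes, with 1 value per line, no gene was called by limma (0.0% of 10588 tested, with 446 at an unadjusted p under 0.05, and 0 called with DESeq2 fold changes). The largest difference among the 8 was that of MLLT3, with means of 0.10 ± 0.258 in the 5 rearranged lines and -0.53 ± 0.475 in the 5 others, a difference of 0.64 (SE 0.239, 95% interval 0.12 to 1.16). Its exact permutation p was 0.0397 (n = 5 and 5, the smallest possible being 0.00794), and its limma FDR 0.933. KMT2A differed by 0.25 (SE 0.118), from -0.05 ± 0.195 to -0.30 ± 0.0849, with an exact permutation p of 0.0397 and an FDR of 0.933. For the other 6 the exact permutation p-values, with n = 5 and 5, ran from 0.198 for DOT1L to 0.889 for AFF1. The 95% intervals of these 6 differences reached 0.35 to 0.69 at their upper ends and -1.0 (PSIP1) to -0.12 (DOT1L) at their lower ends, so an equal response of the classes is not shown.

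Over the 10 lines 1 of the 8 genes was called higher on average, against 18.7% of 10588 genes, and 5 were called lower, against 26.5%. Their median was -0.29 on the log2 scale and that of all genes -0.03. The other genes of these complexes and pathways were read from lists. Of 13 KMT2 family members and core subunits of their complexes, 12 were tested, 8 were lower and none higher, with PAXIP1 at -0.61 (SE 0.07), KMT2D at -0.53, HCFC1 at -0.49 and WDR5 at -0.38, and a list median of -0.27. Of 18 partners in the super elongation and DOT1L complexes, 14 were tested, with 4 higher, among them ELL2 (0.88, SE 0.226) and HEXIM1 (0.25), and 2 lower, LEO1 (-0.56) and MLLT6 (-0.39). Their median was 0.03.

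Of 19 other fusion partners of KMT2A, 15 were tested, with GAS7 (1.83, SE 0.435) and MLLT11 (0.77) higher and 3 lower, among them TET1 (-0.79) and MLLT6, and a median of 0.04. Of 13 genes known as targets of KMT2A fusions only 4 were expressed in all 10 lines and tested. MYB, the transcription factor of blood progenitors, was lower at -0.76 (SE 0.149, limma FDR 0.00153), as was the cell cycle kinase CDK6 at -0.65 (SE 0.192, FDR 0.0153). Of 7 menin partners and factors of KMT2A processing, JUND, a transcription factor that menin binds, was higher at 0.72 (SE 0.119), while CSNK2A1 (-0.46), TASP1 (-0.34), the protease that cleaves KMT2A, and KPNA2 (-0.31) were lower. The list median was -0.23. Monocytic markers moved with treatment, with ITGAM (2.21) and LYZ (0.97) higher among 3 tested, and 3 of 6 myeloid markers passed the test, CD33 (0.23) and PTPRC (0.52) higher and MPO (-0.80) lower. The only erythroid marker tested, EPOR, was at 0.02, and no lymphoid or non-haematopoietic marker was expressed in all lines. The part of these markers in the values of the 8 genes was not tested. In neither class comparison was a gene of these lists called. For untreated levels the 13 fusion targets had a median log2 difference of 0.94, rearranged over other, led by FLT3 (4.76, SE 1.5, unadjusted p 0.00872, edgeR FDR 0.759), against a median of -0.03 for all genes.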

How the data were processed

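RNA of 11 AML cell lines, untreated or after 24 h of etoposide, was sequenced by the authors in 3 libraries per group, 66 in all. Per the methods and processing notes they mapped reads with STAR 2.5.3a to GRCh38.p7, after FastQC 0.11.5, and used edgeR 3.20.1. The deposited values are raw counts per gene, 1 column per library, without normalization. The sources used here do not name STAR's count column, but 470 of 716 genes wholly inside an opposite-strand exon have reads, so it counts by strand. The methods state, for experiments in general, that replicates are biological, and that cells of several wells were joined before RNA was isolated. The labels give no culture for a single library, so p-values within a line measure the spread between these libraries.

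Identifiers were named by gencode release 44 (56948 of 57992). The 45 pseudoautosomal Y copies, with 0 reads, were left out. Within each line R 4.3.3 with edgeR 4.0.16 was run (filterByExpr at a count of 10 and a total of 15, TMM, quasi-likelihood test, Benjamini-Hochberg over all genes, called at an FDR below 0.05). Changes were tested over lines with limma 3.58.1 (eBayes with trend, 1 value per line), and untreated levels with edgeR on counts summed per line. Single genes were tested over lines by exact two-sided permutation in scipy. Log2 levels used CPM with a pseudocount of 1. DESeq2 1.42.0, other scalings, no filter, a replicate block and omission of libraries and lines were tried. Replicate numbers were taken to pair libraries in OCI-AML2, NB-4 and MOLM-13, where deviations of same-numbered libraries correlated above 0.1 in each of 3 pairs. The main fits within a line, of untreated levels between classes and over lines were tested on simulated data. For the class difference in change, only data without a true difference were simulated. The alternatives and the fit for differences among lines were not tested in this way. The 8 genes and the lists were chosen with earlier results of these data known. Named list genes are at most 4 per list, those past the threshold with the largest change, and the 2 genes most alike to each of the 8 by Pearson r.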

Additional observations from a re-analysis of the deposited data

Results flagged for a closer look

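Among 32 groups of 5 or 6 lines, 1 for each gene, class and measure, 2 held a line that stood apart from its group by Dixon's criterion at 95%, which chance gives in about 1 in 20 groups. Both are untreated levels in the other class. PSIP1 stood at 298 CPM in NB-4, where the gap to the next line took 0.632 of the range of 6 lines. MLLT3 stood at 41.5 CPM in F-36P, with a gap of 0.633 of the range.

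The change after etoposide differed among the 10 lines for each of the 8 genes by the interaction term of an edgeR quasi-likelihood fit. The FDR was 3.11e-13 for AFF1, 1.38e-09 for PSIP1, 2.13e-09 for MLLT3, 8.24e-07 for MEN1, 3.75e-05 for DOT1L, 0.00144 for MLLT1, 0.0074 for AFF4 and 0.0242 for KMT2A. Concentrations differed between lines, and their part in these differences was not tested.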

How the results depend on the processing

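Of 1498 values for single genes recomputed under an alternative, 1391 kept their side of the threshold and none that was called in either fit changed sign. A further 80 lost a call and 27 gained one. Adding a fold change above 2 took the calls among 80 from 15 higher to 0 and from 40 lower to 3. Leaving out 1 library per line gave 11 to 16 higher and 34 to 39 lower. Over lines the count of genes called higher was 1 under each alternative, and the count lower was 4 or 5, the change being KMT2A. Neither class comparison called any of the 8 under the alternatives run. MLLT3 in its fusion lines was never called, with log2 differences of 0.26 by limma on line means and 0.38 without F-36P. KMT2A in those lines, a comparison planned for MLLT3 only, passed the threshold with DESeq2 (-1.22, FDR 0.0171), where 59 of 17052 genes passed.

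With the replicate number as a block, 14 tests were called higher and 38 lower. In NB-4, MOLM-13 and OCI-AML2, where the numbers were taken to pair the libraries, the block changed no call of the 8 genes. OCI-AML2 had no call of them in the main fit. Elsewhere it added KMT2A in KASUMI-1 (-0.43, FDR 0.0371) and lost 4 calls in OCI-AML3, those of KMT2A (FDR 0.12), PSIP1 (0.0537), MLLT1 (0.0657) and AFF4 (0.118). The causes were not tested. Depth limits MLLT3 most, with 31 reads in its lowest library.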

Other observations

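Of the 20 genes whose untreated levels were most alike to DOT1L over the 11 lines, with r of 0.835 or more, 7 lie on chromosome 19, which holds 7.17% of the 13662 genes compared. The chromosome was looked at after MLLT1 and EPS15L1 had been seen as the closest, and no test was made.

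The 3 untreated libraries of F-36P differed in several of the genes at once. The library with the lowest PSIP1 (52.5 CPM, against 75.7 and 106) also had the lowest KMT2A (234, against 248 and 294) and MLLT3 (32.7, against 42.6 and 49.1), and the highest MEN1 (128, against 116 and 97.9) and DOT1L (86.6, against 67.5 and 69.0). Without it, the change of PSIP1 in F-36P was -0.23 in place of 0.05, and that of KMT2A was -0.45 with an edgeR FDR of 0.00592.

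MDM2, a target of p53, was set beside PSIP1 after the values were seen. It rose more than 2-fold, by 1.84 in MOLM-13, 1.11 in MV-4-11 and 2.59 in OCI-AML3 on the log2 scale, and PSIP1 was lower in these 3 lines (-1.16, -0.31 and -0.58). PSIP1 was lower in THP-1 too (-0.37), where MDM2 was at 0.03. In the 4 lines where PSIP1 was called higher, MDM2 was at -0.33 to 0.65. These are values of 10 lines with no test.

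Some genes of the lists were nearly silent in single lines. MLLT10, another fusion partner of KMT2A, had 0 reads in HL-60, which allows up to 0.0515 CPM, against 22.6 to 198 in the other 10 lines. KDM6A, a histone demethylase found in the KMT2C and KMT2D complexes, was at 0.201 CPM in THP-1 and at 18.6 to 70.4 elsewhere.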
